A study of Mus musculus with 285 samples.

Results

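Chemokines are small secreted proteins that draw leukocytes along a gradient, and they act through receptors coupled to G proteins on the migrating cells. Lymphoid chemokines such as Cxcl13, Ccl19 and Ccl21a place B and T cells, inflammatory ones such as Ccl2 and Cxcl1 call in monocytes and neutrophils, and Cxcl12 is made by stromal cells and endothelium. In muscle their transcripts can come from resident macrophages, connective tissue cells, vessels and lymphocytes as well as from fibres. The genes described here are those whose symbol starts with Ccl, Cxcl, Ccr or Cxcr and a digit, or with Cx3c, with 2 receptor genes left out of the rule and not analysed here. The array measured 45 such genes of 11622 named genes, 32 ligands and 13 receptors, of which 28 belong to the CC, 15 to the CXC and 2 to the CX3C class. By their known sources and target cells they were split into 19 lymphoid, 19 macrophage and 7 stromal members. A further 10 genes of the rule in the RefSeq table matched no probe.

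The samples were muscle of 285 F2 mice of both sexes, bred from the strains C57BL/6J and C3H/HeJ crossed either way round. Every animal was fed chow (4% fat) first, moved at 8 weeks to the Western diet, of which 42% was fat and 0.15% cholesterol, and stayed on it 12 weeks. All were killed fasted (12 h), at 20 weeks. Each mouse's RNA, labelled with Cy3, was compared on 1 array with a Cy5-labelled pool holding an equal share of RNA from every sample. The muscle dissected and the sex, genotype and cross direction of single mice are not in the labels used here, so all mice formed 1 group, and mouse number, from 51 to 362, was the only order among them. A value of 0 is the level of the pool, and values are log2 of mouse over pool. Ratios carry no absolute level, so neither the tissue label nor the rank of one gene's transcript above another's could be checked. In whole muscle, fewer cells of a type and less RNA per cell cannot be told apart.

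The ratio's sign and base are not stated in the labels. The sign was read as mouse over pool, since linear ratios to a pool made of the samples should average near 1. Read as log10, Y-linked Eif2s3y then averaged 0.796, against 23.2 with the sign turned. Read as base 2 it averaged 0.751, against 1.92 turned, so this check does not decide the base. Base 10 was assumed, and the 2-fold counts below rest on it. The r between 2 arrays over all probes had a median of 0.0748 and a lowest value of -0.745, with 2.48% of pairs below -0.3. Turning the sign would turn the words higher and lower and leave correlations between genes as they are, and base 2 would shrink every log2 value by 1 factor. Array spread differed, with an SD over genes from 0.18 to 0.62. None of the members reached the bound at which the deposited values stop.

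Chemokine ligands varied more among the mice than receptors. The members' median SD over 285 mice was 0.28 on the log2 scale, against 0.21 over all named genes, and it was 0.38 for ligands and 0.17 for receptors. The 95th percentile of all named genes, 0.56, was passed by 9 members, all of them ligands: Cxcl13, Ccl8, Ccl27a, Cxcl10, Ccl5, Cxcl1, Ccl7, Cxcl9 and Ccl2. At least 10% of mice lay 2-fold or more from the pool for 7 ligands, as they did for 2.88% of named genes. These are descriptions of spread, which biological differences and array noise share.

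**Figure D1:**
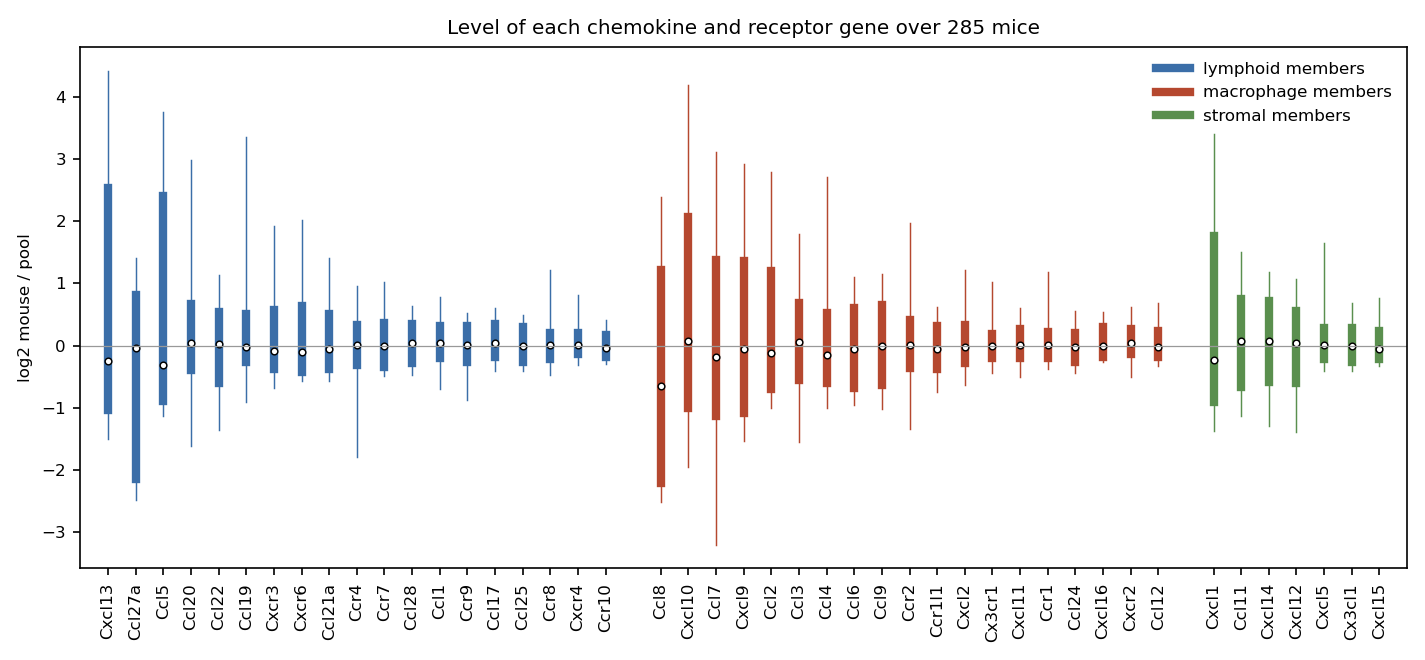
Level of each of the 45 genes over 285 mice, as log2 of mouse over pool on the vertical axis; thin lines run from the lowest to the highest mouse, thick lines from the 5th to the 95th percentile, and open circles are medians. Within each class the genes are ordered by SD, and Cxcl13 (1.06), Ccl8 (1.05) and Cxcl1 (0.83) have the largest SD of the lymphoid, macrophage and stromal class.

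Cxcl13, which attracts B cells to follicles, ran from -1.50 through a median of -0.25 to 4.42, with an SD of 1.06. Its high tail held 30 mice at 2-fold or more above the pool, against 20 that far below. Ccl8, a monocyte attractant made by tissue macrophages, ran from -2.52 through -0.64 to 2.39. Most mice lay below the pool for Ccl8, 112 of them by 2-fold or more and 22 as far above it. Cxcl10, an interferon-induced ligand of Cxcr3, ran from -1.95 through 0.07 to 4.20, and Ccl5, a T cell attractant, from -1.13 through -0.30 to 3.76. Cxcl1, a neutrophil attractant, ran from -1.37 through -0.23 to 3.41. Ccl7, a monocyte attractant, ran from -3.20 through -0.18 to 3.11, and Ccl2, the main ligand of Ccr2, from -1.01 through -0.11 to 2.79. Cxcl9, another ligand of Cxcr3, ran from -1.53 through -0.06 to 2.92.

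The remaining lymphoid ligands were narrower. Ccl19 and Ccl21a, the ligands of Ccr7, had SDs of 0.36 and 0.30, with highest values of 3.36 and 1.42. Ccl22 and Ccl17, which share the receptor Ccr4, had SDs of 0.36 and 0.16. Ccl20 had an SD of 0.39 and a highest value of 2.98. Ccl1, Ccl25 and Ccl28 had SDs of 0.17, 0.16 and 0.18. Among macrophage ligands, Ccl3 and Ccl4, which attract cells bearing Ccr1 or related receptors, had SDs of 0.41 and 0.40, Ccl6 and Ccl9 had 0.39 each, and Cxcl2, Cxcl11, Ccl24, Cxcl16 and Ccl12 lay between 0.13 and 0.21. Of the stromal ligands, Ccl11, an eosinophil attractant, had an SD of 0.43, Cxcl14 of 0.41 and Cxcl12 of 0.38, while Cxcl5, Cx3cl1 and Cxcl15 had 0.21, 0.17 and 0.15.

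Receptors stayed near the pool in most mice. The widest were Cxcr3, the receptor on activated T cells, with an SD of 0.36 and a highest value of 1.93, and Cxcr6, a T cell receptor for Cxcl16, with an SD of 0.36 and a highest value of 2.03. Ccr2, the monocyte receptor, followed with 0.28, from -1.34 to 1.97. Ccr4, Ccr7 and Ccr1l1 had SDs of 0.23, 0.22 and 0.22. Ccr9, Cx3cr1, Ccr1, Ccr8, Cxcr2, Cxcr4 and Ccr10 lay between 0.11 and 0.17.

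Probes of the same gene were averaged. The 2 probes of Ccl8 gave the same pattern over mice, with r = 0.999, and the 2 of Ccl12 correlated at 0.846. Of the 3 probes of Ccl21a, 2 correlated at 0.905, and the third, with an SD of 0.18, correlated at -0.106 and -0.0513 with them. Those 2 had SDs of 0.45 and 0.47, so the averaged Ccl21a, with an SD of 0.30, varied less than they did. Ccl21a and Ccl27a have near-identical copies in the mouse genome that such probes may not separate, so their values are uncertain in that respect.

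Ccl27a, a skin chemokine that acts through Ccr10, was the one member whose levels fell into 3 clusters. The low cluster held 73 mice, from -2.48 to -1.45 with a median of -1.99. The middle cluster held 149 mice, from -0.53 to 0.35 with a median of -0.04, and the high cluster 63 mice, from 0.39 to 1.42 with a median of 0.66. The low mice are set apart by an empty stretch of values, whereas the middle and high clusters adjoin. The mean linear ratio to the pool was 0.255, 0.987 and 1.62 in the low, middle and high clusters. They made up 25.6%, 52.3% and 22.1% of the mice, and a split of 1 to 2 to 1 would give 71.25, 142.5 and 71.25 mice. All 3 clusters occurred in each run of 20 mouse numbers, and Ccl27a was among the 6 members whose level did not differ between runs beyond the spread within them (limma F test, adjusted p = 0.384).

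Among genes of known chromosome, most that followed Ccl27a lay on its own chromosome, 4. This comparison was added after the clusters had been seen. Of 21511 other features, 107 changed with the Ccl27a level at a limma adjusted p below 0.05 (0.497%), and none of the other 44 members did. A chromosome was known for 46 of the 107. Of all genes with a known one, 27 of 626 on chromosome 4 were called, 4.31%, against 19 of 10295 elsewhere, 0.185%. With the run of mouse numbers as a block the counts were 31 and 10. Alad, a heme synthesis enzyme, fell by 0.34 ± 0.03 (SE) per SD of Ccl27a in 285 mice, with an adjusted p of 1.79e-26. Its median was 0.42 in the low, -0.06 in the middle and -0.84 in the high cluster. Bspry fell by 0.42 ± 0.03, and Dnajb5, 5 measured genes away from Ccl27a, fell by 0.14 ± 0.01. Npr2, the receptor for C-type natriuretic peptide, rose by 0.20 ± 0.02 and Plekhf2 by 0.15 ± 0.01. These are the 5 genes of lowest p. Inside the low, middle and high clusters the correlations with Ccl27a were mixed in sign. They were 0.249, -0.146 and -0.00408 for Alad, 0.264, -0.0928 and -0.328 for Bspry, and 0.0452, 0.0403 and 0.197 for Dnajb5. Myorg, which fell across all mice, gave -0.224, -0.225 and 0.137, and Cdc26, which rose, gave -0.0712, 0.282 and 0.308. Npr2 gave -0.250, -0.0741 and -0.20, against its slope over all mice. The neighbouring ligand genes on chromosome 4 were not called: the slope was 0.05 ± 0.02 for Ccl19 (adjusted p = 0.347) and 0.02 ± 0.02 for Ccl21a (adjusted p = 0.723). Genotypes were not used here, and the amount of transcript and the binding of the probe cannot be told apart in a ratio from 1 probe.

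**Figure D2:**
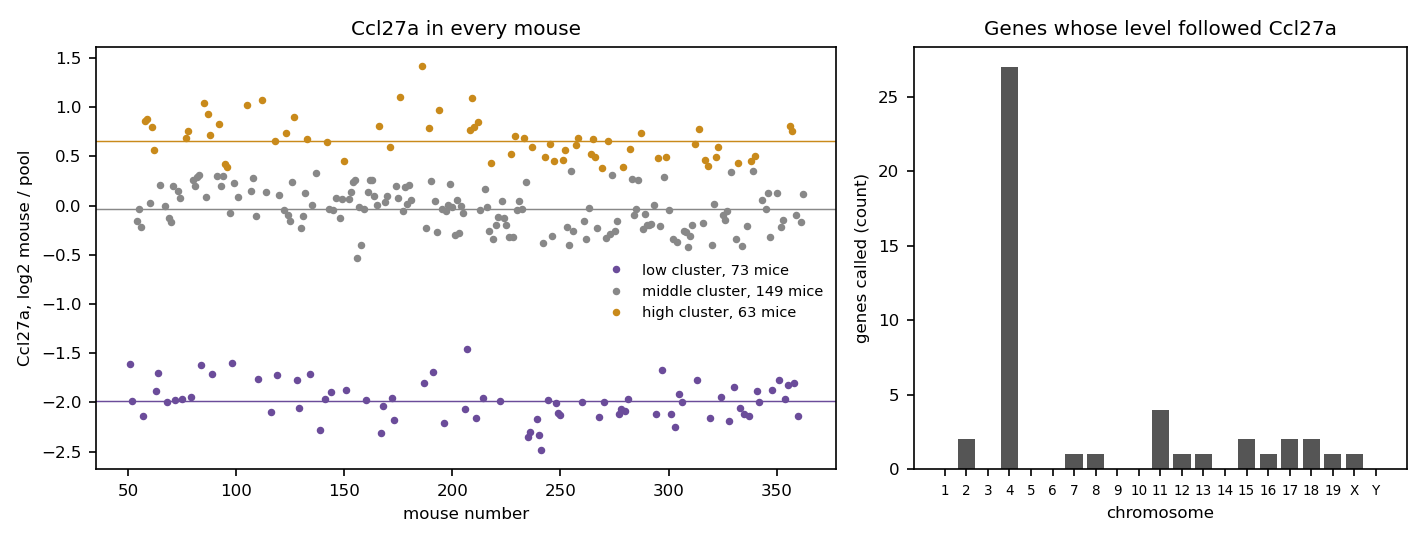
Left, Ccl27a in each of 285 mice as log2 of mouse over pool against mouse number, coloured by cluster with each cluster's median as a line; the 73 low mice lie below -1.45 all along the numbers. Right, the number of genes on each chromosome whose level changed with Ccl27a at an adjusted p below 0.05, with 27 on chromosome 4.

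Some mice carried several lymphoid genes at high levels together. Ccl5 split into 264 mice up to 0.75 and 21 mice from 1.44 to 3.76, and Cxcl13 into 251 mice up to 0.93 and 34 from 0.96. Cxcr6 split into 266 and 19 mice. All 21 mice of the upper Ccl5 cluster were also in the upper Cxcl13 cluster, which is 61.8% of the latter, and 18 of them were in the upper Cxcr6 cluster too. All 18 were among the 26 mice of the upper cluster of the lymphocyte score, the mean standardised level of 19 measured B and T cell genes such as Cd79a, Ms4a1, Cd3e and Cd8a. These mice were not spread evenly over the numbers. Of the 18 mice numbered 331 to 350, 10 lay in the upper Ccl5 cluster, and 6 of 19 did among 311 to 330. The median in numbers 331 to 350 was 2.20 for Ccl5 and 2.86 for Cxcl13.

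In the 26 mice with high lymphocyte scores, Cxcl13 ran from -0.98 through 3.11 to 4.42 and Cxcr3 from 0.07 through 0.59 to 1.93. Ccl19 ran from -0.19 through 0.53 to 3.36, and Ccl21a from -0.23 through 0.52 to 1.42. Ccr7, the receptor of both on naive lymphocytes, ran from -0.48 through -0.17 to 1.02, with most of these mice below the pool. High levels in these mice were neither confined to the lymphoid class nor shared by all of it. Of the macrophage class, Cxcl9, Ccl8 and Cxcl10 had medians of 1.10, 0.90 and 0.86, while Ccl2 and Ccl6 had -0.10 and -0.14. Of the lymphoid class, Ccr10, Ccr8 and Ccl25 had medians of -0.09, -0.07 and 0.01. What set these mice apart was not tested. Outside the upper clusters the lymphoid genes had correlations of 0.315 or less where a clustered member was in the pair. Cxcl13 and Cxcr3 gave r = 0.315 in 251 mice, Cxcr3 and Cxcr6 0.268 in 266, Ccl5 and Cxcr3 0.231 in 264 and Ccl21a and Cxcr6 0.20 in 266. Ccl5 and Cxcl13 correlated at r = 0.205 (rho = 0.222) in the 251 mice below both, with a permutation adjusted p of 0.00176 over 25 added pairs. Ccl5 and Cxcr6 gave r = 0.0713 in 263 mice (permutation adjusted p = 0.311), and Cxcl13 and Ccl19 gave r = 0.0340 in 251 mice (adjusted p = 0.595 by permutation). Ccl21a and Cxcr3 correlated at r = 0.670 and rho = 0.468 over all 285 mice, the 26 of high lymphocyte score included (permutation adjusted p = 1.67e-05, set by the smallest p that 100000 shuffles can give), at 0.649 within runs and at 0.621 without the 2 mice of extreme Ccl21a. Ccl19 and Cxcr3 gave r = 0.567, and 0.540 without the 2 mice of extreme Ccl19, but rho was 0.0974 (permutation adjusted p = 0.146).

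**Figure D3:**
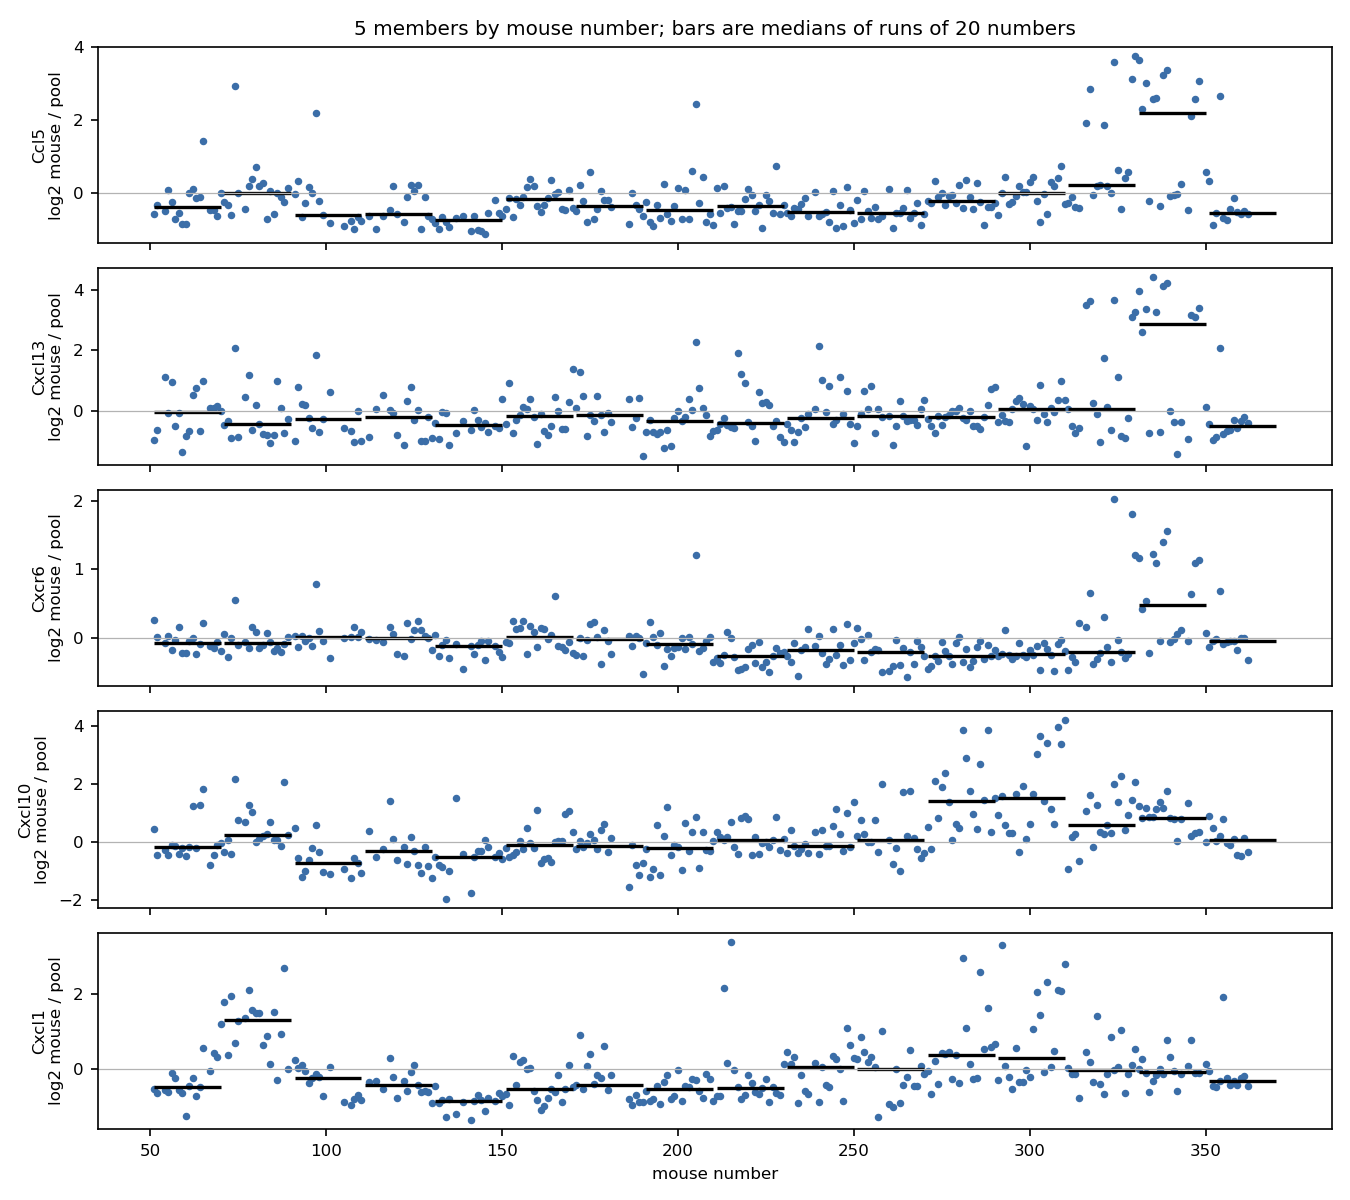
Ccl5, Cxcl13, Cxcr6, Cxcl10 and Cxcl1 in each mouse, as log2 of mouse over pool, against mouse number; black bars are medians of runs of 20 numbers. Ccl5 and Cxcl13 are high together among numbers 311 to 350, Cxcl10 is high among 271 to 310 and Cxcl1 among 71 to 90.

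Levels also ran with mouse number. Of 45 members, 39 (86.7%) differed between runs of 20 numbers (limma F test, adjusted p below 0.05), as did 84.6% of all features. The share of variance between runs was largest for Cxcl10, 42.4%, followed by Ccl5 with 38.1% and Cxcl1 with 36.3%. Cxcl10 had run medians of 1.41 in 271 to 290 and 1.51 in 291 to 310, and medians between -0.71 and 0.85 in all other runs. Cxcl1 had its highest run median, 1.33, in 71 to 90. What the mouse number stands for is not in the labels used here, so time, litter and handling cannot be told apart.

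Macrophage chemokines rose with the macrophage score. Each score is the mean standardised level of a list of marker genes, none of them a member, and a member was called where its limma adjusted p over all features was below 0.05 and its r was at least 0.3 in size. Of 45 members, 19 rose with the score of 19 macrophage genes (Cd68, Csf1r, C1qa and others) and none fell. Over all features 6.12% rose and 1.91% fell. Of the macrophage class 12 of 19 rose, of the lymphoid 5 of 19 and of the stromal 2 of 7. The median r was 0.360 for macrophage, 0.0212 for lymphoid and 0.114 for stromal members, and -0.0641 over all features. These relations are over mice and say nothing of which cell makes the transcript.

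Ccl9 and Ccl6, neighbouring genes expressed by myeloid cells, led, and Ccl8 had the steepest slope. Ccl9 rose by 0.33 ± 0.01 (SE) per SD of the macrophage score (r = 0.830, rho = 0.818, limma adjusted p = 3.34e-71). Ccl6 rose by 0.29 ± 0.02 (r = 0.738) and Ccl8 by 0.73 ± 0.04 (r = 0.695). Ccl4 rose by 0.23 ± 0.02 (r = 0.566) and Cxcr3 by 0.19 ± 0.02 (r = 0.525). Within runs of mouse numbers these 5 correlations were 0.847, 0.781, 0.787, 0.512 and 0.532. Cxcl13, Ccl7, Ccl21a, Ccl2, Ccl5, Ccl3, Ccl24, Ccl11, Cxcl16, Ccr2, Cxcl14, Cxcr6, Cxcl9 and Ccl12 made up the remainder, with slopes from 0.04 to 0.54. For Cxcr6 and Cxcl16, which have upper clusters of 19 mice each, r was 0.160 and 0.273 in the larger cluster, below the limit of 0.3. For Ccl5 and Cxcl13 it was 0.475 and 0.519 there. The 27 relations between a score and its leading members were chosen by the size of r in these same mice. Their permutation p was therefore bound to be small and adds no support. For both r and rho it was the smallest that 100000 shuffles can give, 1e-05. Leaving out the 2 mice farthest in the score moved r by at most 0.0462.

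**Figure D4:**
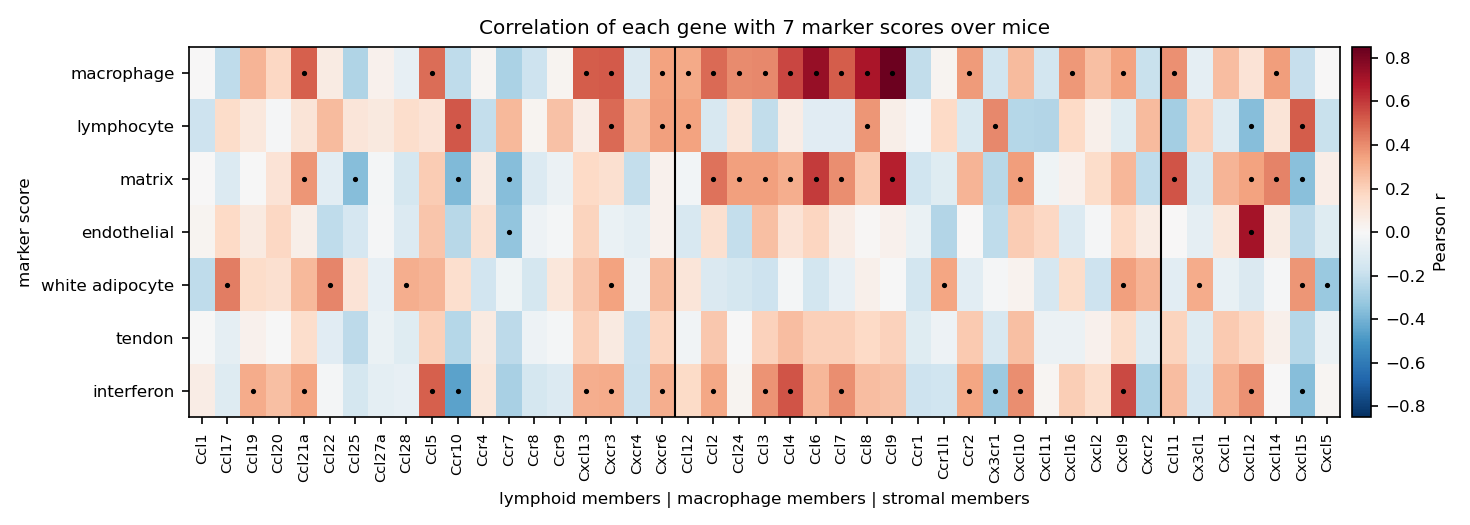
Pearson r of each of the 45 genes (columns, by class and then by name) with 7 marker scores (rows) over mice, from blue for negative to red for positive; dots mark members that were called. The lymphocyte row uses 259 and the tendon row 202 mice of the larger cluster, and the macrophage class is called most often along the macrophage score, 12 of 19.

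Along the matrix score, of collagens and other fibroblast genes, 12 members rose and 4 fell, against 7.75% and 10.8% of all features. Ccl9 rose by 0.26 ± 0.02 (r = 0.660) and Ccl6 by 0.23 ± 0.02 (r = 0.596). Ccl11 rose by 0.23 ± 0.02 (r = 0.536), Ccl2 by 0.27 ± 0.03 (r = 0.458) and Cxcl14 by 0.17 ± 0.02 (r = 0.425), each with a limma adjusted p below that threshold. The members that fell were Ccr10, Ccr7, Ccl25 and Cxcl15, with r from -0.373 to -0.353. With runs as a block 9 rose and 1 fell. The matrix and macrophage scores themselves correlated at 0.736 in the 259 mice of the larger lymphocyte cluster.

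In those 259 mice the macrophage, lymphocyte and matrix scores were also fitted together. On the lymphocyte and matrix scores the members were called about as often as all features. On the macrophage score 16 rose and 3 fell at a limma adjusted p below 0.05, against 10.4% and 11.8% of all features. Ccl8 had partial slopes of 0.88 ± 0.06 on the macrophage and -0.37 ± 0.06 on the matrix score (limma adjusted p = 5.47e-32 and 2.62e-07). Ccl7 rose by 0.46 ± 0.07 and Cxcl13 by 0.45 ± 0.05 on the macrophage score. Of the macrophage class 12 rose and 1, Cxcr2, fell. On the matrix score 8 rose and 7 fell, against 15.2% and 19.8%, and all 3 stromal members called, Ccl11, Cxcl14 and Cxcl12, rose, with slopes of 0.15, 0.16 and 0.11. Cxcl10 and Cxcl9 had the largest positive matrix slopes, 0.35 ± 0.09 and 0.24 ± 0.06. With runs as a block these were 0.01 (adjusted p = 0.941, limma) and 0.08 (adjusted p = 0.406), so both calls were lost. On the lymphocyte score 17 rose and 12 fell, against 36.9% and 29.9% of all features. Ccl8 rose by 0.20 ± 0.04, while Cxcl10 fell by 0.17 ± 0.06 and Ccl7 by 0.14 ± 0.05. The Cxcl10 slope turned to 0.22 with the first principal component of all genes as a covariate (limma adjusted p = 0.0127) and to 0.13 over all 285 mice (limma adjusted p = 0.0901).

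Along the lymphocyte score alone, in the 259 mice of its larger cluster, 7 members rose and 1 fell, against 22.0% and 14.6% of all features. Members were thus called no more often than all features. Of the score's own 19 markers 13 rose in these mice, with a median r of 0.374, so there it tracked lymphocyte genes only loosely. Along the macrophage score 18 of its own 19 markers rose, with a median r of 0.791 over 285 mice. Ccr10, Cxcl15 and Cxcr3 rose by 0.06 ± 0.01, 0.07 ± 0.01 and 0.10 ± 0.01 (r = 0.531, 0.516 and 0.480). Without the 17 mice of its own upper cluster, r was 0.472 for Ccr10. Cx3cr1, the fractalkine receptor of monocytes, rose by 0.06 ± 0.01 and Ccl8 by 0.36 ± 0.06. Over all 285 mice the Cx3cr1 slope was -0.00239 (limma adjusted p = 0.846). Cxcl12 was the member that fell, with r = -0.360. Ccr10 and Cxcl15 also followed the first principal component of all genes, which held 15.2% of the variance, with r = -0.833 and -0.693. With it as a covariate their slopes were -0.00125 and 0.00757, and neither was called. Of the 8 members called without it, only Ccl8 was called with it, beside Ccl4 and Ccl5, 3 in all. With all 285 mice 12 members rose and none fell, against 4.98% and 4.22% of features, a count that includes the 26 mice of high lymphocyte score.

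Cxcl12, the ligand of Cxcr4 that retains progenitors and lymphocytes in tissue, was the member that followed the endothelial score most closely. It rose by 0.26 ± 0.02 per SD of the score of 14 endothelial genes such as Pecam1, Cdh5 and Kdr (r = 0.705, rho = 0.639, limma adjusted p = 3.96e-41). Only 0.0511% of all features had an r of that size with this score, and within runs it was 0.697. Cxcl12 also correlated at 0.588 with the first principal component of all genes. It was the single member that rose, and Ccr7 the single one that fell (r = -0.332), against 9.76% and 11.7% of all features. The Ccr7 call was lost with runs as a block (r = -0.278), with scaled arrays, with the first principal component as a covariate and in the higher-numbered mice.

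Along the interferon score, of 17 induced genes such as Irf7, Ifit1 and Isg15, 14 members rose and 3 fell, against 6.68% and 15.5% of all features. Cxcl9 rose by 0.42 ± 0.04 (r = 0.560, limma adjusted p = 1.28e-22) and Ccl4 by 0.22 ± 0.02 (r = 0.535). Ccl5 rose by 0.46 ± 0.05 over all 285 mice (r = 0.509), and its r was 0.480 in the 264 mice of its larger cluster. Ccl7 rose by 0.32 ± 0.04 (r = 0.394). Cxcl10 rose by 0.39 ± 0.05 with r = 0.393, an r that 7.03% of features matched in size, and Cxcl11, the remaining interferon-induced ligand of Cxcr3, was not called (r = 0.0190). The calls of Cxcl13 and Cxcr6 rested on their upper clusters, since r was 0.0700 in 251 and 0.0594 in 266 mice without them. Over all 285 mice Ccr10 fell by 0.05 ± 0.01 (r = -0.457), and its r was -0.339 in the 268 mice of its larger cluster. Cxcl15 and Cx3cr1 fell too. None of these 3 falls was called with the first principal component as a covariate (r from -0.158 for Cx3cr1 to -0.0562 for Cxcl15) or in the higher-numbered mice, and with runs as a block only that of Ccr10 was (r = -0.350).

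Along the white adipocyte score of 8 genes such as Lep and Plin1, 8 members rose and 1 fell, against 8.87% and 7.79% of all features. Ccl17 and Ccl22, ligands of Ccr4 made by dendritic cells, rose by 0.07 ± 0.01 and 0.15 ± 0.02 (r = 0.435 and 0.414). Cxcl15, Cxcl9 and Cxcr3 rose with r of 0.375, 0.348 and 0.340, and for Cxcl9 the call was lost with runs as a block (r = 0.196). Cxcl5 fell, with r = -0.315. Along the tendon score, in the 202 mice of its larger cluster, none of the members was called, against 0.962% and 0.181% of all features.

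The limit on r decides how many members are called, since with so many mice small slopes pass the test. At a limma adjusted p below 0.05 alone, 24 members rose and 10 fell along the macrophage score, against 13% and 28.8% of all features. Along the lymphocyte score 17 rose and 10 fell, against 39.1% and 30.9%. Along the matrix score 20 rose and 10 fell, against 20.8% and 38.8%. The macrophage and matrix counts thus hold more rising than falling members, whereas more features fell than rose. The same held for the endothelial, white adipocyte, tendon and interferon scores, so it was not particular to those 2. For the endothelial score the counts were 12 and 9, against 24.4% and 36%, and for the white adipocyte score 17 and 10, against 27.2% and 31.3%. For the tendon score they were 13 and 4, against 7.71% and 13.8%, and for the interferon score 23 and 11, against 23.6% and 37.2%. In the joint fit, also asking for a partial slope of at least 0.1 left 10 members on the macrophage, 7 on the lymphocyte and 8 on the matrix score, against 7.4%, 14.1% and 11.4% of all features.

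Ligands and their receptors moved together in some pairs and apart in others. Of 20 ligand and receptor pairs, 8 correlated positively and 7 negatively at a permutation adjusted p below 0.05 over the 20. The share of all gene pairs that would pass this test was not computed, and small correlations pass it. An r as high with Ccr10 was reached by 32.4% of all features for Ccl27a and 38.1% for Ccl28. For Ccl25 with Ccr9, Cxcl10 with Cxcr3 and Cxcl16 with Cxcr6 these shares were 22.6%, 22.2% and 27.4%. Cxcl9 and Cxcr3 correlated at r = 0.438 and rho = 0.253 over 285 mice (permutation adjusted p = 5e-05 and 0.00015), 0.361 within runs and 0.399 without the 2 mice of extreme Cxcl9. A share of 2.58% of all features correlated as highly with Cxcr3. Ccl2 and Ccl7 correlated with Ccr2 at 0.321 and 0.314 (rho = 0.389 and 0.372), and at 0.229 and 0.220 within runs. As high an r with Ccr2 was reached by 2.10% and 2.38% of all features. Cxcl10 gave r = 0.125 with Cxcr3 and a rho of 0.00737 (permutation adjusted p = 0.0478 and 0.902), and Cxcl11 gave -0.237. Ccl21a and Ccr7 correlated at -0.344, Ccl9 and Ccr1 at -0.182, and Ccl22 and Ccr4 at -0.202. The shares of all features with an r at least as high were 94.2%, 96.0% and 82.4%. They were 88.1% for Cxcl11 with Cxcr3, 85.9% for Cxcl12 with Cxcr4, 74.4% for Cxcl1 with Cxcr2 and 80.5% for Ccl19 with Ccr7. The remaining features correlated more negatively with the receptor than the ligand did. Ccl19 and Ccr7 gave r = -0.186, but rho was -0.0579 (permutation adjusted p = 0.350). Cx3cl1 and Cx3cr1 gave -0.0292 (permutation adjusted p = 0.654). Cxcl12 and Cxcr4 gave r = -0.169, and 0.0383 given the first principal component, and their rho was -0.0799 (permutation adjusted p = 0.225). Ccl27a and Ccr10 gave 0.226 in the 140 mice of their larger clusters and 0.0435 within runs. Cxcl16 and Cxcr6 gave 0.145 in the 258 mice of their larger clusters and 0.0492 within runs.

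Ligands whose genes lie side by side often correlated over mice. Among 22 pairs of members that follow each other within 300 kb, added after the data had been seen, 13 correlated positively and 3 negatively. The share of all neighbouring genes that would be called so was not computed. These pairs include receptor genes, of which only Cx3cr1 and Ccr8 correlated positively (r = 0.179). As high an r with Ccr8 was reached by 10.7% of all features. For Ccl22 and Cx3cl1 (r = 0.203) 22.0% of features had as high an r with Cx3cl1. On chromosome 11, Ccl2 and Ccl7 reached r = 0.876 and rho = 0.862 over 285 mice (permutation adjusted p = 1.83e-05), 0.868 within runs, and no other feature correlated more highly with Ccl7. Ccl9 and Ccl6 reached 0.818 and Ccl3 and Ccl4 0.613. Ccl7 and Ccl11, the next pair along, gave 0.315, and Ccl11 and Ccl12 gave -0.0683. On chromosome 4, Ccl19 and Ccl21a gave r = 0.571 and rho = 0.285. On chromosome 5, Cxcl9 and Cxcl10 gave 0.426, 0.293 within runs, whereas Cxcl10 and Cxcl11 gave -0.00447 (permutation adjusted p = 0.940). Cxcl9 and Cxcl11, a pair without a test, gave r = -0.0983.

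**Figure D5:**
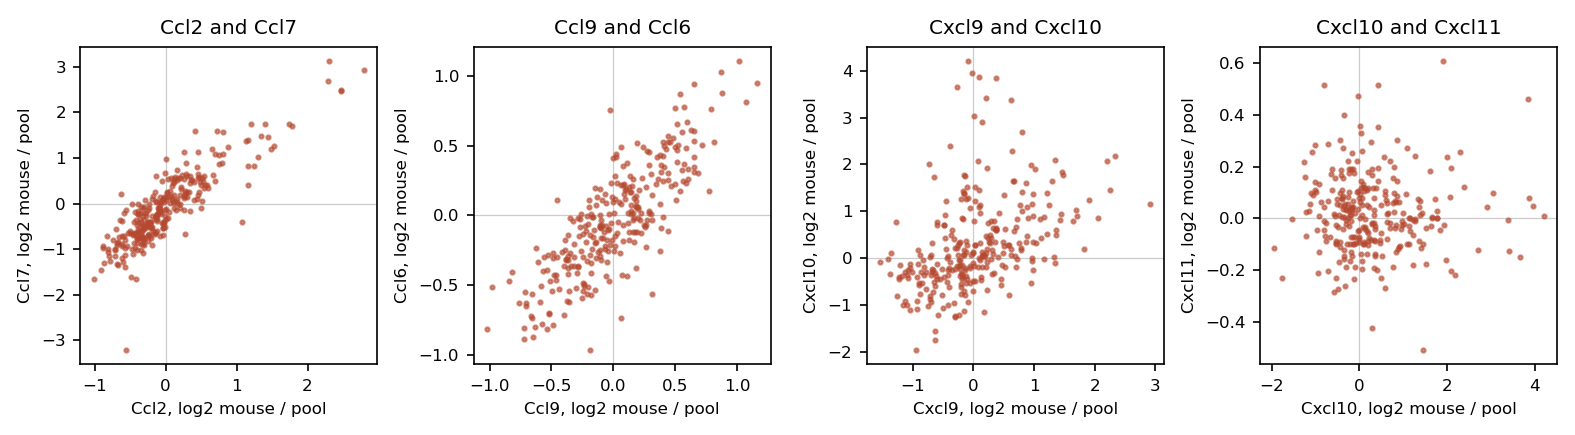
Levels of 4 pairs of neighbouring ligand genes in each of 285 mice, as log2 of mouse over pool on both axes. Ccl2 with Ccl7 (r = 0.876) and Ccl9 with Ccl6 (r = 0.818) follow a line, Cxcl9 with Cxcl10 (r = 0.426) scatters, and Cxcl10 with Cxcl11 (r = -0.00447) shows no slope.

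Inflammatory ligands also moved together across chromosomes. Among Ccl2 and Ccl7 on chromosome 11 and Cxcl1, Cxcl5 and Cxcl10 on chromosome 5, chosen after seeing the data, pairs from different chromosomes had r from 0.488 (Ccl7 and Cxcl5) to 0.619 (Ccl7 and Cxcl1). On chromosome 5, Cxcl1 and Cxcl10 gave r = 0.628 and rho = 0.593, and 0.533 within runs. Ccl2 correlated with Cxcl1 at 0.602 and with Cxcl10 at 0.601. Cxcl5 lay 2-fold or more above the pool in 4 mice, and its rho with Cxcl1 and Cxcl10 was 0.0701 and 0.0635. With Ccl2 and Ccl7 the rho of Cxcl5 was 0.247 and 0.222, below the r of 0.562 and 0.488. Over all 990 pairs of members, 4.34% had an r of at least 0.5, against 2.68% of all pairs of named genes.

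Cxcl10 and Cxcl1 moved together, and Cxcl2 is the neighbour of Cxcl1, with r = 0.336 and rho = 0.152 between that pair. For that reason the promoters of Cxcl10, Cxcl1 and Cxcl2 are shown. They are RefSeq sequences of GRCm38.p6, from 250 bases before to 50 after the start, 5′ to 3′, with matches to the interferon-stimulated response element (ISRE: GAAA, any 2 bases, GAAA) and to the kappaB motif in capitals. Both strands were searched. The Cxcl10 promoter is at chr5:92348840-92349139 (minus strand), Cxcl1 at chr5:90890995-90891294 (plus strand) and Cxcl2 at chr5:90903649-90903948 (plus strand).
Cxcl10: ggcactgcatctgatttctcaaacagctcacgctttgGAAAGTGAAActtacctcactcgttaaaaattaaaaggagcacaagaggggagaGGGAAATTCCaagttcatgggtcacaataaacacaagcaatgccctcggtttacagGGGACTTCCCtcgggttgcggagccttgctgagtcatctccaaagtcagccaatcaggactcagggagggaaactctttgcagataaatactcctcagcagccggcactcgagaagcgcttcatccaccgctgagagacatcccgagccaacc
Cxcl1: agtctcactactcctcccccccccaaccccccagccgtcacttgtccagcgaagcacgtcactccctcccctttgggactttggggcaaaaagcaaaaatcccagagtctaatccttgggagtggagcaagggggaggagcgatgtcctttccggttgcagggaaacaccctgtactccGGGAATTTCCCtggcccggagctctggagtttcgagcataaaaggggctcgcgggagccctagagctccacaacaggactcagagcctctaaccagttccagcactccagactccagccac
Cxcl2: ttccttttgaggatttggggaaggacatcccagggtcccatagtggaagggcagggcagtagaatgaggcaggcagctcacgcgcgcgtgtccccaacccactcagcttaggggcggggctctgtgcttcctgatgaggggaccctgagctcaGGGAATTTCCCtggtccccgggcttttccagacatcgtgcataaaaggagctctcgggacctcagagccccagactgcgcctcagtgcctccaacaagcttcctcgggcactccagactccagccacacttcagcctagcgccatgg

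The ISRE match in Cxcl10 begins 213 bases before the start and its kappaB matches 159 and 103 bases before it. Cxcl1 and Cxcl2 each hold 1 stretch that matches kappaB on both strands, beginning 71 and 97 bases before the start. RefSeq promoters were found for 34 of the 45 members, but not for Ccl2 or Ccl7, which correlated more highly with Cxcl1 than Cxcl2 did. The ISRE was found in 3 of them, Cxcl10, Ccl19 and Cxcl14, and in 3.44% of all 32851 promoters of that length. The kappaB motif was found in 6, Cxcl1, Cxcl2, Cxcl10, Ccl20, Ccl9 and Ccl27a, and in 4.51% of all. The GAS motif (TTC, any 3 bases, GAA) was found in 3, Ccl17, Ccr1l1 and Cxcl14, and in 8.30% of all. These matches describe letters in a window and no binding was measured.

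Of the other chemokine pathway genes listed, 29 of 39 were measured, among them atypical receptors, G protein subunits and the kinases and exchange factors that act downstream. Along the macrophage score 8 of the 29 rose and none fell. Pf4, a platelet and macrophage CXC chemokine outside the symbol rule, rose by 0.39 ± 0.02 (r = 0.789), and Rac2, the leukocyte GTPase, by 0.45 ± 0.04 (r = 0.592). Ackr4, which scavenges Ccl19 and Ccl21a, rose with r = 0.441. Of all features, 6.12% rose and 1.91% fell. Along the interferon score 6 of the 29 rose and 4 fell, against 6.68% and 15.5% of all features, and along the lymphocyte score 8 rose and 2 fell, against 22.0% and 14.6%.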

How the data were processed

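Muscle RNA of 285 mice was analysed as 1 group. The deposited values are log ratios, read here as log10 of mouse over pool; per the labels the authors hybridised Cy3-labelled sample RNA against a Cy5-labelled pool before they deposited them, and log base, sign, background correction and normalization are not given in the sources used here. They were multiplied into log2. Array medians lay between -0.0222 and 0.0173 as deposited. A missing value, 0.0972% of all, took its probe's mean. The number of arrays limits the precision, and signal over background is unknown. Probes with values on 80% of arrays were kept, 23510 of 23560. Of all probes, 13653 carry 1 gene symbol, 48 several and 9859 none, and 12650 symbols were updated through Entrez identifiers. Probes of a gene were averaged, and all fits ran over 21512 features, named and unnamed.

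The members, marker lists and pairs were chosen with earlier results of these data known. All members are named, and those given in full are up to 5 called members of largest r per score and up to 3 of largest slope per score in the joint fit. Slopes were fitted with limma 3.58.1 in R 4.3.3 and adjusted by Benjamini-Hochberg over all features. Clusters came from mclust 6.1.1, with a BIC gain over 10, means over 3 SD apart and at least 5% of mice each, and fits along a clustered score used the larger cluster. Correlations had two-sided permutation tests of 100000 shuffles (numpy 2.4.6). The tests treat mice as exchangeable, and litters are unknown. The fits were tested on simulated data. Alternatives covered array scaling, probe choice, subsets of mice, runs of numbers as a block, the first principal component, ranks and call rules.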

Additional observations from a re-analysis of the deposited data

How the results depend on the processing

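Of 374 alternatives to 36 results on single members, 333 kept direction and call, 37 lost the call and 4 changed sign. Of 137 alternatives to the counts of called members, 101 stayed within 1.5 times and 36 did not. With the adjusted p alone, without the limit on r, the counts of members called were 34 for the macrophage, 27 for the lymphocyte, 30 for the matrix, 21 for the endothelial, 27 for the white adipocyte, 17 for the tendon and 34 for the interferon score. With runs of 20 numbers as a block they were 10 for matrix, 1 for endothelial and 11 for interferon. With the first principal component as a covariate they were 3 for lymphocyte, 9 for matrix, 8 for interferon, 11 for lymphocyte in the joint fit and 9 of the ligand and receptor pairs. In the higher-numbered mice they were 7 for matrix, 1 for endothelial, 10 for interferon, 12, 13 and 5 for macrophage, lymphocyte and matrix in the joint fit, and 6 pairs. In the lower-numbered mice they were 4 for endothelial, 16 for white adipocyte, 6 for tendon and 8 for matrix in the joint fit. With arrays scaled by their SD they were 1 for endothelial, 3 for tendon and 8 pairs. Ranks gave 1 and all mice 11 for tendon, and 9 pairs were called without numbers 51 to 90 and 271 to 310. With a partial slope of at least 0.1 also required, the joint fit called 10, 7 and 8 for macrophage, lymphocyte and matrix. Read as base 2, 0 members had 10% of mice 2-fold from the pool. The slopes that changed sign were those on the lymphocyte score of Ccr10 with the first component (-0.00125, limma adjusted p = 0.879), of Cx3cr1 over all mice (-0.00239, limma adjusted p = 0.846), and of Cxcl10 in the joint fit, 0.22 with the first component and 0.13 over all mice (limma adjusted p = 0.0127 and 0.0901). The cause was not tested. No paired analysis was possible because all mice form 1 group.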
